A study of Macaca fascicularis with 16 samples.

Results

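Fc receptors and the adaptors that carry their signals were followed in blood mononuclear cells of cynomolgus macaques (Macaca fascicularis) treated with NKTT320, an antibody drug directed at the invariant receptor of natural killer T cells. The 7 genes were taken by symbol from the 23602 gene symbols of the count tables. They are the IgG receptors FCGR2A, FCGR2B and FCGR3A, the signalling chains FCER1G and TYROBP, the kinase SYK, and FCGRT, the neonatal Fc receptor. All 7 passed the filter on low counts and stood among the 11545 genes tested. The same 4 animals of Mauritian origin, LG04, LG11, LG12 and LG15, were sampled before dosing and again 30 minutes, 2 hours and 1 day later, so each of the 4 times has 4 libraries and the comparison with the first sample is within animals. No untreated animals were analysed here, so the drug, the repeated bleeding and the passage of time cannot be told apart.

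IgG receptors on blood leukocytes bind the constant part of antibodies held on a target or in an immune complex. An activating receptor signals through an immunoreceptor tyrosine-based activation motif (ITAM), which FCGR2A carries in its own tail and FCGR3A borrows from the partner chain FCER1G. Src-family kinases phosphorylate the motif, and SYK docks on it and passes the signal on. FCGR2B carries an inhibitory motif instead and dampens signalling when it is engaged together with an activating receptor. TYROBP, also called DAP12, is the ITAM chain of many other receptors of myeloid and natural killer cells. FCGRT works inside the cell, where it rescues IgG from breakdown and so sets how long antibodies, antibody drugs included, last in blood.

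The libraries held between 1417467 and 8582852 counts, so that 3 counts correspond to between 0.35 and 2.12 CPM (counts scaled to library size). Haemoglobin genes took between 0.025% and 48.7% of the counts, so CPM are given here on effective library sizes from edgeR's TMM scaling, which damps the weight of such genes. Of the 16 libraries, 14 were most alike another library of the same animal over all genes tested. The other 2 were the 1 day libraries of LG04 and LG15, which were most alike each other (Spearman 0.97, against 0.91 and 0.95 for the best match within the own animal). The 1 day log2 fold changes of the 7 genes are therefore given below also without the 1 day library of LG04 and without LG15. The 1 day values of paralogue sums, pathway genes and cell type markers include both libraries. Because the cells were not separated, a difference in the number of cells of a type and a difference in RNA per cell cannot be told apart in any value that follows.

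On the deposited FPKM scale, which adjusts for gene length, FCER1G had the highest value of the 7 genes, with a median over the 16 libraries of 298.5 FPKM (99.7 to 970.2). It stood above TYROBP in 16 of 16 libraries. TYROBP (median 100.4 FPKM, 11.2 to 244.8) and FCGR3A (median 58.6 FPKM, 25.3 to 190.4) stood in no fixed order, with TYROBP above in 9 of 16. The kinase SYK had a narrower FPKM range, 17.7 to 57.9 around a median of 34.9, and lay below FCGR3A in 14 of 16 libraries and above FCGRT in 14 of 16. FCGRT had a median of 18.6 FPKM and FCGR2B one of 13.9 FPKM, with FCGRT above in 11 of 16 libraries. The activating receptor FCGR2A was lowest, with a median of 3.92 FPKM (1.08 to 8.41), below FCGR2B in 16 of 16 libraries.

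None of the 7 genes passed the threshold of 0.05 on the Benjamini-Hochberg adjusted p of edgeR's quasi-likelihood test at any time. Against pre-treatment, 0% of all genes tested were called at 30 minutes, 0% at 2 hours and 0.225% (26 genes) at 1 day. At an unadjusted p under 0.05 the members numbered 0 of 7 at 30 minutes (2.53% of all genes tested), 3 of 7 at 2 hours and 2 of 7 at 1 day. The 3 at 2 hours were FCGR2A, FCGR2B and SYK, all higher, where 4.17% of all genes tested were higher at that level, and the 2 at 1 day were FCGR2A and FCGR2B, where 8.47% were higher. DESeq2 also called 0 of 7 at each time. By value, the 7 fold changes at 2 hours were all above 0, with a median log2 of 0.49 beside 0.02 for all genes tested. On TMM-scaled CPM 4 of 7 genes were higher in 4 of 4 animals, which held for 8.06% of all genes tested. On total counts FCGR2A, FCER1G and SYK were lower at 2 hours in LG04. Without LG15 the 2 hour log2 fold changes of TYROBP (-0.29) and FCGRT (-0.18) were below 0. The median log2 of the members was 0.09 at 30 minutes and 0.14 at 1 day.

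FCGR2A, the activating receptor with its own ITAM, was at 16.3 CPM in LG04, 5.16 in LG11, 4.08 in LG12 and 8.88 in LG15 before the drug. At 2 hours the values were 25.3, 12.7, 5.41 and 21.5 CPM in the same order. Each animal stood above its own first sample on this TMM scale, but the animals lay so far apart that the groups overlapped. In LG04 the deposited FPKM of FCGR2A was 5.18 after 5.67, and CPM on total counts was 11.6 after 15.2. The log2 fold change was 0.90 ± 0.27 (SE, n = 4 animals, 95% interval 0.32 to 1.48, edgeR adjusted p = 0.387). At 30 minutes FCGR2A was at 19.5, 8.93, 3.40 and 13.6 CPM, higher in 3 of 4 animals, with LG12 lower. At 1 day it was at 24.3, 18.5, 5.80 and 10.3 CPM, a log2 fold change of 0.86 ± 0.28 (95% interval 0.27 to 1.46, edgeR adjusted p = 0.168), again higher in 4 of 4 animals, as were 9.83% of all genes tested at that time. Without LG11, whose 1 day value was the farthest above its first sample, that fold change was 0.47. On deposited FPKM, LG15 was lower at 1 day, at 2.99 after 3.33. The FCGR2A values rest on few reads, between 8 and 155 per library.

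FCGR2B, the inhibitory IgG receptor, had almost the same level in the 4 animals before the drug, at 18.9 CPM in LG04, 21.6 in LG11, 17.5 in LG12 and 19.1 in LG15 (mean 19.3 ± 1.71, SD, n = 4). At 2 hours it was at 66.6, 47.4, 25.1 and 72.9 CPM, and the lowest of these lay above the highest of the first samples. On TMM-scaled CPM, FCGR2B and SYK were the 2 of 7 genes whose groups did not overlap in this direction, beside 0.736% of all genes tested. For SYK this depended on the scaling, as given below. The log2 fold change of FCGR2B was 1.40 ± 0.43 (SE, n = 4 animals, 95% interval 0.48 to 2.32), the largest of the 7 genes at this time, with an edgeR adjusted p of 0.409. The 30 minute values were 37.6, 45.8, 9.78 and 29.7 CPM, so 3 animals were already higher while LG12 was lower. By 1 day the animals had parted, with LG11 at 91.1 and LG12 at 35.4 CPM but LG04 at 22.3 and LG15 at 18.6, close to their first samples. The 1 day log2 fold change of 1.02 ± 0.43 (edgeR adjusted p = 0.312) was 0.53 without LG11.

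**Figure D1:**
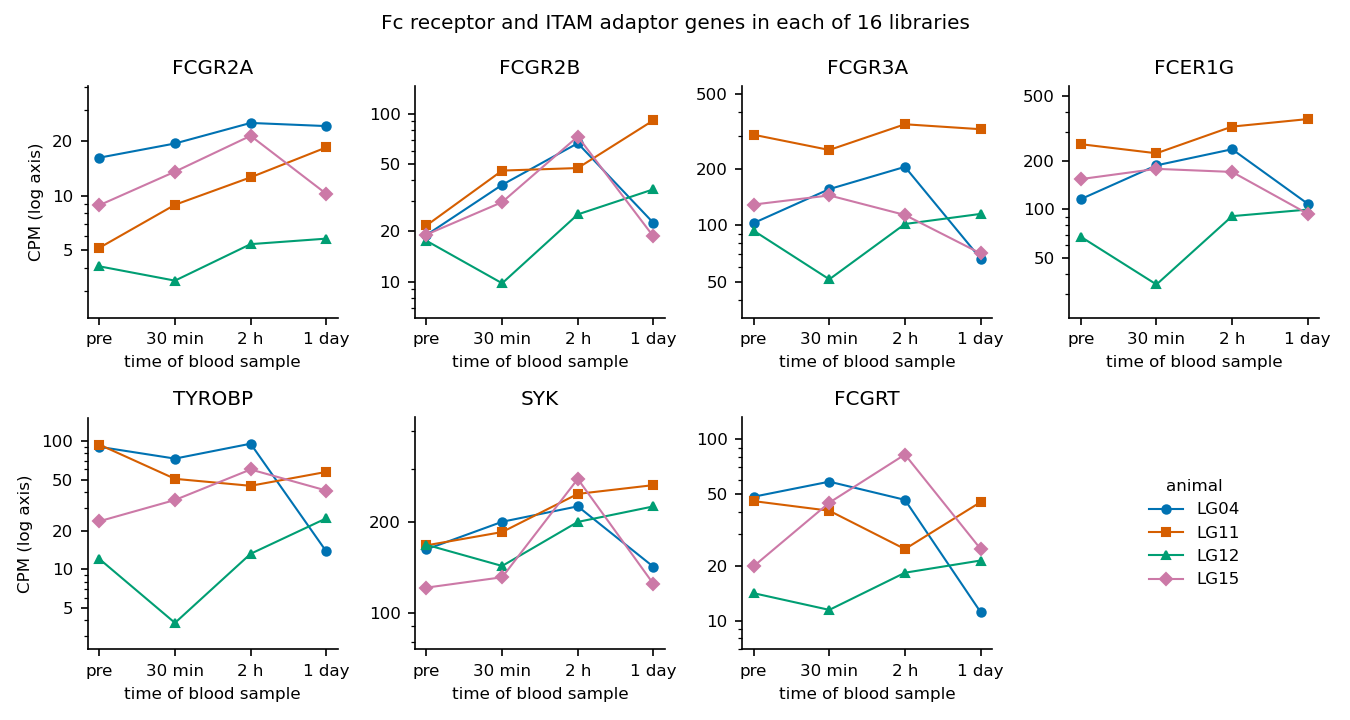
CPM of each of the 7 genes (vertical, log axis) in each animal at the 4 times (horizontal); every point is 1 library and lines join the samples of an animal. FCGR2B and SYK have 2 hour points that all lie above the pre-treatment points on this TMM-scaled axis. The FCGR3A, FCER1G and FCGR2A panels are ordered mainly by animal.

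FCGR3A, also known as CD16a, is the activating receptor of natural killer cells and non-classical monocytes through which antibody-coated cells are killed. Before the drug it was at 102.7 CPM in LG04, 303.8 in LG11, 93.5 in LG12 and 128.9 in LG15. LG11 was the highest animal at each time. The values were 155.8, 252.0, 51.4 and 144.2 CPM at 30 minutes, 204.8, 345.6, 101.5 and 113.4 at 2 hours, and 66.4, 325.2, 114.9 and 70.7 at 1 day. LG04 stood at a higher value than its first one at 2 hours and below it at 1 day. The log2 fold changes were -0.02 ± 0.31 at 30 minutes (95% interval -0.69 to 0.65), 0.29 ± 0.31 at 2 hours (-0.38 to 0.96) and -0.19 ± 0.31 at 1 day (-0.86 to 0.49), with edgeR adjusted p values of 1.00, 0.879 and 0.897. At each time the interval includes changes in both directions. Without the 1 day library of LG04 the 1 day value was 0.04, and without LG15 it was 0.02. The 2 hour value was 0.036 without LG04.

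Reads of the low-affinity IgG receptors are hard to place, because the genes arose by duplication and macaque reads were counted here on human gene models. The macaque gene table used here (RefSeq, assembly T2T-MFA8v1.1) places FCGR2B, FCGR3A, FCGR2A and FCER1G on chromosome 1, with FCGR3A between FCGR2B and FCGR2A, and lists no gene under the symbols FCGR2C or FCGR3B. The human models nonetheless received 7954 counts for FCGR3B beside 15004 for FCGR3A. A coding gene named only LOC135970474 lies between FCGR2B and FCGR3A in the macaque gene table, and its relation to these receptors was not examined. In single libraries FCGR3B held between 0.493 and 0.714 times the FCGR3A count, with a median of 0.529. The FCGR2B to FCGR2A count ratio was far less steady, from 0.919 in the 1 day library of LG04 to 6.1 in that of LG12, with a median of 3.14. FCGR2C held at most 0.395 times the FCGR2A count and had 0 counts in 2 libraries of LG12.

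**Figure D2:**
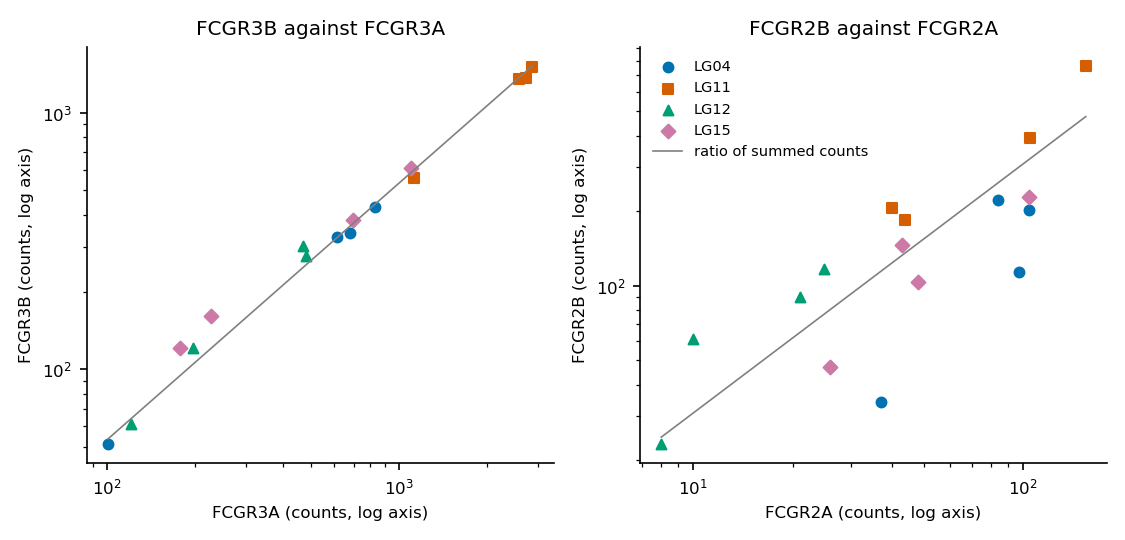
Counts of FCGR3B against FCGR3A (left) and of FCGR2B against FCGR2A (right), both axes log, 1 point per library, with a line at the ratio of the summed counts. The 16 FCGR3 points follow the line at 0.530, while the FCGR2 points scatter around 3.08.

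Summing the paralogues sets aside which copy a counted read was assigned to, though any reads left uncounted stay missing from the sum. FCGR2A, FCGR2B and FCGR2C together were at 40.2, 27.5, 22.2 and 31.3 CPM before the drug in LG04, LG11, LG12 and LG15, and at 97.6, 63.3, 30.7 and 102.9 CPM at 2 hours. The sum was higher in each animal, and its groups overlapped only through LG12. Its log2 fold change was 1.19 ± 0.36 at 2 hours (edgeR adjusted p = 0.417) and 0.95 ± 0.37 at 1 day (edgeR adjusted p = 0.259). FCGR3A and FCGR3B together gave 0.33 ± 0.31 at 2 hours and -0.16 ± 0.31 at 1 day, close to the values of FCGR3A alone.

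FCER1G, the common gamma chain that FCGR3A and other Fc receptors need for signalling and surface display, was at 115.8 CPM in LG04, 252.7 in LG11, 67.8 in LG12 and 153.9 in LG15 before the drug. At 2 hours it was at 235.2, 324.5, 90.9 and 170.4 CPM, higher in 4 of 4 animals, though by unequal amounts. The log2 fold change of 0.49 ± 0.31 (95% interval -0.18 to 1.15) had an edgeR adjusted p of 0.760, and it was 0.30 without LG04. At 30 minutes it was at 187.1, 222.1, 34.4 and 178.0 CPM, with LG12 the lowest of all 16 libraries, and at 1 day at 108.4, 361.0, 99.8 and 94.0 CPM, with LG11 the highest. The 30 minute and 1 day log2 fold changes were 0.03 ± 0.31 and 0.14 ± 0.31.

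TYROBP varied most, over a 24.9-fold range of CPM between LG12 at 30 minutes, with 3.83 CPM from 9 reads, and LG04 at 2 hours, with 95.2 CPM. Before the drug it was at 90.0 CPM in LG04, 93.7 in LG11, 12.1 in LG12 and 23.7 in LG15. At 2 hours LG04 and LG12 were near their first samples at 95.2 and 13.2 CPM, while LG11 was lower at 44.7 and LG15 higher at 60.0. The animals thus pointed in different directions, and the log2 fold change was 0.07 ± 0.51 (95% interval -1.04 to 1.18, edgeR adjusted p = 0.989). At 30 minutes the values were 72.9, 50.7, 3.83 and 34.7 CPM, lower than the first sample in LG04, LG11 and LG12. At 1 day LG04 was at 13.8 CPM and the others at 57.4, 25.0 and 41.1. The 1 day log2 fold change of -0.23 ± 0.54 was 0.26 without that LG04 library.

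SYK, the kinase on which the ITAM receptors converge, had little spread before the drug, with 162.2 CPM in LG04, 167.2 in LG11, 167.9 in LG12 and 121.0 in LG15. At 2 hours it was at 225.3, 247.8, 200.0 and 277.8 CPM, and all 4 values lay above all 4 first values on this TMM scale. The separation depended on the scaling. In LG04, whose 2 hour library held 48.7% haemoglobin counts, SYK was at 23.2 FPKM after 28.7 in the deposited values. On total counts it was at 103.5 CPM after 152.1 in that animal, so LG04 lay below all 4 first values on both scales. The log2 fold change was 0.64 ± 0.21 (SE, n = 4 animals, 95% interval 0.19 to 1.10) with an edgeR adjusted p of 0.463. LG15 had both the lowest first value and the highest 2 hour value, and without the 4 shallowest libraries, that one among them, the fold change was 0.38. At 30 minutes SYK was at 200.2, 185.1, 142.8 and 131.0 CPM, a log2 fold change of 0.09 ± 0.21. At 1 day LG11 and LG12 remained at 265.0 and 225.2 CPM, while LG04 and LG15 were at 141.9 and 124.5, and the log2 fold change was 0.27 ± 0.21.

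FCGRT, which recycles IgG, was at 48.3 CPM in LG04, 45.7 in LG11, 14.2 in LG12 and 20.0 in LG15 before the drug, and at 46.4, 24.8, 18.4 and 82.4 CPM at 2 hours. The 2 hour log2 fold change of 0.40 ± 0.46 (95% interval -0.60 to 1.40, edgeR adjusted p = 0.892) rested on LG15, without which it was -0.18. The 2 hour library of LG15 was among the 4 shallowest, with 1890190 counts. At 30 minutes FCGRT was at 58.4, 40.4, 11.5 and 44.8 CPM, and at 1 day at 11.2, 45.1, 21.5 and 24.9. LG04 was thus the highest animal at 30 minutes and the lowest at 1 day. At 30 minutes and 1 day the log2 fold changes were 0.23 ± 0.45 and -0.18 ± 0.47, and the latter was 0.20 without the 1 day library of LG04, in which FCGRT had 17 reads.

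**Figure D3:**
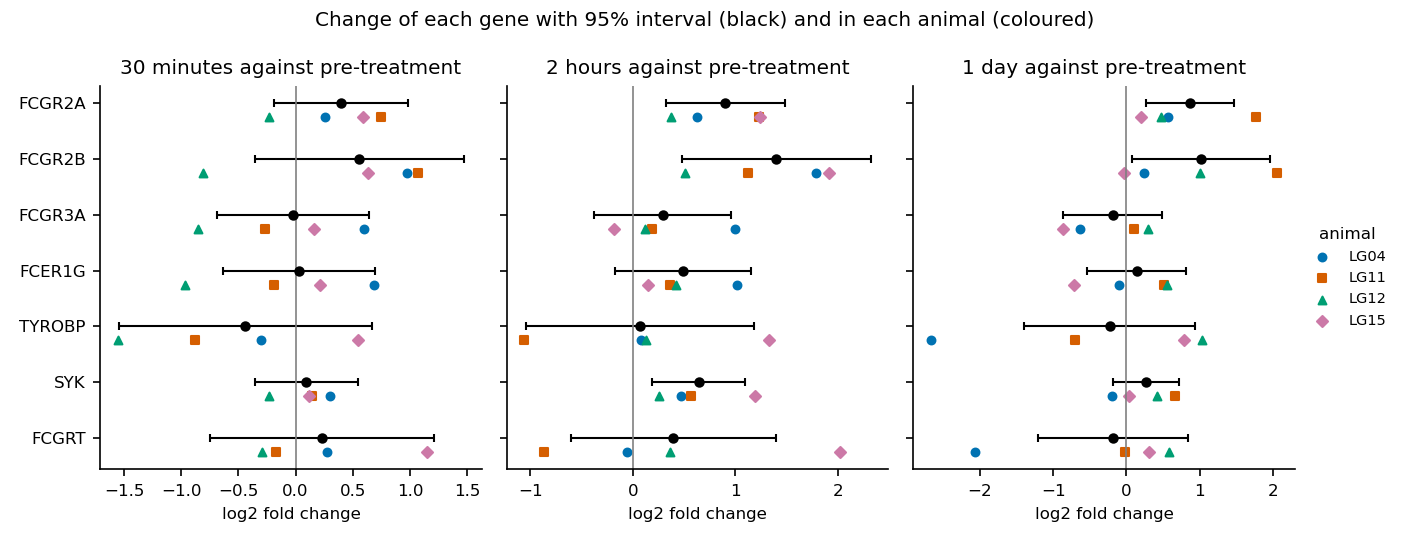
Log2 fold change (horizontal) of each gene against pre-treatment at 30 minutes, 2 hours and 1 day; black points are the edgeR estimates with 95% intervals and coloured symbols the changes in single animals. At 2 hours the intervals of FCGR2A, FCGR2B and SYK lie above 0 while those of the other 4 genes include it; none of the 7 passed the adjusted threshold.

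The later samples were also compared with each other. From 30 minutes to 2 hours all 7 fitted values were above 0, with a median log2 of 0.51, and at an unadjusted p under 0.05 the member was SYK alone (0.55 ± 0.21, edgeR adjusted p = 0.998), where 2.31% of all genes tested were higher at that level. On TMM-scaled CPM, FCGR2A, FCGR2B and SYK were higher in 4 of 4 animals, beside 8.54% of all genes tested. From 2 hours to 1 day all 7 fitted values were below 0, with a median log2 of -0.37, yet 0 of 7 had an unadjusted p under 0.05, where 5.48% of all genes tested were lower at that level. The animals were split in this comparison: LG04 and LG15, whose 1 day libraries stand apart, were lower at 1 day for 7 of 7 genes, while LG12 was higher for 7 of 7 and LG11 for 6 of 7. For FCGR2B the log2 differences were -1.56 in LG04 and -1.95 in LG15 but 0.94 in LG11 and 0.49 in LG12. Without the 1 day library of LG04, FCGR2A (0.02) and TYROBP (0.20) were above 0 in that comparison, and without LG15 so were FCGR2A (0.28) and FCGR2B (0.10). Without LG15, FCGRT was also below 0 from 30 minutes to 2 hours (-0.19). The 2 comparisons share the 2 hour libraries. Against pre-treatment, the 1 day log2 fold changes without that LG04 library were 0.92 for FCGR2A, 1.28 for FCGR2B, 0.32 for FCER1G and 0.41 for SYK. Without LG15 they were 1.07 for FCGR2A, 1.28 for FCGR2B, 0.39 for FCER1G, 0.34 for SYK, -0.53 for TYROBP and -0.26 for FCGRT. In a joint test of any difference between the 4 times, FCGR2A (edgeR adjusted p = 0.266), FCGR2B (0.337) and SYK (0.362) had an unadjusted p under 0.05, as did 12.2% of all genes tested. Over all genes tested, 0.104% were called in that joint test and 0.104% from 2 hours to 1 day.

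How much of a gene's variation lay between animals separated the members into groups. For log2 CPM, differences between animals held 74.4% of the sum of squares of FCGR2A, 73.1% of FCER1G, 71.4% of FCGR3A and 58.3% of TYROBP, above the median of 46.4% over all genes tested. FCGRT (37.6%), FCGR2B (25.3%) and SYK (19.7%) were below that median. Differences between times held 40.4% for SYK and 33.9% for FCGR2B, beside a median of 12.2% over all genes tested. FCGR2A had 15.3% between times and the other 4 genes between 4.93% and 9.22%.

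The balance between receptors was compared within libraries, where the scaling cancels, by exact sign-flip tests over the 4 animals (two-sided, smallest possible p 0.125, 9 tests). The ratio of activating FCGR2A to inhibitory FCGR2B was lower at 2 hours by a mean log2 change of -0.45 ± 0.59 (SD, n = 4, exact p = 0.375, adjusted 0.675), with 1 of 4 animals higher. At 30 minutes its mean log2 change was -0.11 ± 0.56 and at 1 day -0.03 ± 0.39. The ratio of FCGR3A to FCGR2A was lower in 4 of 4 animals at 1 day, with a mean log2 change of -1.07 ± 0.62 (SD, n = 4) and the smallest exact p the design allows, 0.125 (adjusted 0.675). At 30 minutes its change was -0.45 ± 0.59 and at 2 hours -0.62 ± 0.82, with 1 of 4 animals higher at each. For FCER1G to TYROBP the mean log2 changes were 0.49 ± 0.58, 0.37 ± 1.14 and 0.45 ± 1.81 (SD, n = 4) at the 3 later times. The exact p values were 0.25, 0.5 and 0.75, with 3, 3 and 2 of 4 animals higher. Without LG11 the 2 hour change was 0.013, and without LG04 the 1 day change was -0.26. At this number of animals none of the 9 tests could pass 0.05.

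Likeness of pattern was measured as Pearson's correlation of log2 CPM after each animal's mean was taken out, over 16 libraries of 4 animals that share library depth and cell makeup, and it is given as a description. Among the members, FCER1G and FCGR3A were most alike (0.92), followed by FCGR2B and SYK (0.91), FCGR2A and FCGR2B (0.87) and FCGRT and TYROBP (0.82). FCGR2A and TYROBP were least alike (0.09). Outside the 7 genes, FCGR3A was most like its paralogue FCGR3B (0.97), SCARB2 (0.97), a lysosomal membrane protein, and MS4A7 (0.96), a marker of non-classical monocytes. The macaque gene table lists no gene under the symbol FCGR3B. The likeness of FCGR3B to FCGR3A can come from how reads were split between the human models, which was not tested. FCER1G was most like SNX10 (0.96), CLEC7A (0.95), the beta-glucan receptor Dectin-1 of myeloid cells, and RNASET2 (0.95). FCGR2B was most like SLC8A1, CD300LF and MEFV (each 0.96), of which CD300LF is an inhibitory myeloid receptor and MEFV the pyrin gene of myeloid cells. FCGR2A followed ZFYVE26 (0.94), NRP1 (0.92) and the scavenger receptor CD163L1 (0.91), and SYK followed TBC1D8 (0.94), HIP1 (0.94) and PGD (0.93). TYROBP was most like ZNF653, AP3D1 (each 0.97) and GNA15 (0.96), and FCGRT most like RASGRP4, RHOG and TNIP2 (each 0.97).

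Other genes of the pathway gave 0 calls with edgeR at every time against pre-treatment. Of 20 other Fc receptors 12 could be tested, and at 2 hours 1 was higher and 1 lower at an unadjusted p under 0.05, where 4.17% of all genes tested were higher and 3.27% lower. The IgA receptor FCAR, which also signals through FCER1G, was at a median of 8.19 CPM before the drug (2.92 to 24.6) and 53.5 CPM at 2 hours (8.66 to 89.9). It was higher in 4 of 4 animals with overlapping groups, with a log2 fold change of 2.11 ± 0.52 (edgeR adjusted p = 0.260). FCAR is named because it had the smallest p of its list at this time, so its value is not set against those of the members. At 30 minutes FCAR had a log2 fold change of 1.04 ± 0.52, higher in 3 of 4 animals. FCER2, the low-affinity IgE receptor of B cells, had the smallest p of its list at 1 day, with a log2 fold change of 0.43 ± 0.28.

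Among the ITAM chains and the receptors that signal through them, 27 of 32 genes could be tested, and at 2 hours 5 were higher and 1 lower at an unadjusted p under 0.05 (median log2 0.55), beside 4.17% of all genes tested higher and 3.27% lower. KLRC2, an activating receptor of natural killer cells that pairs with TYROBP, was lower in 4 of 4 animals at 30 minutes, at a median of 8.91 CPM (5.13 to 11.9) after 20.3 CPM (10.6 to 22.4) before the drug, with a log2 fold change of -1.10 ± 0.24 (edgeR adjusted p = 0.538). KLRC2 has near-identical neighbours, so its counts are uncertain. CD3G, an ITAM chain of the T cell receptor complex, had a log2 fold change of -0.62 ± 0.17 at 2 hours (edgeR adjusted p = 0.325), lower in 4 of 4 animals. GP6, the platelet collagen receptor that uses FCER1G, had one of 3.08 ± 0.66 at 1 day (edgeR adjusted p = 0.0755), higher in 4 of 4 animals from a median of 0.545 CPM to 17.9 CPM.

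Downstream of the motif, 46 of 46 kinases and adaptors were tested. At an unadjusted p under 0.05, 2 were higher and 1 lower at 2 hours, beside 4.17% of all genes tested higher and 3.27% lower. At 1 day 6 were higher and 2 lower at that level, where 8.47% of all genes tested were higher and 5.13% lower. The Tec-family kinase TEC had the smallest p of its list at 1 day. It was at a median of 9.71 CPM before the drug (9.27 to 12.6) and 20.9 CPM at 1 day (15.7 to 32.9). Its log2 fold change was 1.09 ± 0.21 (edgeR adjusted p = 0.063). LCK, the Src-family kinase of T cells, had a log2 fold change of -0.47 ± 0.16 at 2 hours, and the B cell adaptor BLNK one of 0.52 ± 0.24 at 30 minutes. CD3G and LCK also belong to the 19 T cell markers, of which 18 were below 0 at 2 hours, with a median log2 of -0.40. At an unadjusted p under 0.05, 7 of these markers were lower, beside 3.27% of all genes tested, and 0 were called. On the opposing side 33 of 34 inhibitory receptors and phosphatases were tested. At 2 hours 4 were higher and 1 lower at an unadjusted p under 0.05, beside 4.17% of all genes tested higher and 3.27% lower. CD300A, an inhibitory receptor with tyrosine motifs like that of FCGR2B, was higher in 4 of 4 animals at 2 hours, with a log2 fold change of 1.00 ± 0.25 (edgeR adjusted p = 0.260). The phosphatase PTPN12 had a log2 fold change of 1.07 ± 0.28 at 1 day (edgeR adjusted p = 0.107), and PTPN22 one of -0.33 ± 0.16 at 30 minutes.

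Of 10 genes that work with FCGRT in endosomal sorting and recycling, 8 were tested, with 0 at an unadjusted p under 0.05 at 30 minutes and at 2 hours and 2 higher at 1 day, beside 8.47% of all genes tested. RAB11A, a GTPase of recycling endosomes, had a log2 fold change of 0.58 ± 0.20 at 1 day (edgeR adjusted p = 0.184). RAB5A, of early endosomes, had log2 fold changes of 0.35 ± 0.23 and 0.34 ± 0.23 at 30 minutes and 2 hours.

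Monocyte markers were higher at 2 hours as well. Of 17 monocyte markers 17 were above 0 in log2 fold change at 2 hours, with a median log2 of 1.00. At an unadjusted p under 0.05, 9 of these markers were higher, beside 4.17% of all genes tested, and 0 were called. Their summed level ran from 959.9 to 4401 CPM before the drug and from 1829 to 8669 CPM at 2 hours, with none of the 17 at 0. In the 1 day samples the sum was between 1757 and 10560 CPM. The mean log2 level of these markers at 1 day was above the first sample in LG11 (7.95 after 6.50) and LG12 (5.79 after 4.22) and below it in LG04 (5.56 after 6.47) and LG15 (5.54 after 6.02). Beside these markers, the 13 non-classical monocyte markers tested had a median log2 of 0.35 at 2 hours, and LYPD2 of that list was at 0 in all libraries.

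With the monocyte marker level entered as a covariate in the edgeR fit, the 2 hour log2 fold change of FCGR2B was 0.39 in place of 1.40 (adjusted p = 0.773). FCGR2A was at 0.50 (adjusted p = 0.703) and SYK at 0.26 (adjusted p = 0.768) in the same fit. FCER1G (-0.15), FCGR3A (-0.32), FCGRT (-0.60) and TYROBP (-0.92) were below 0 in it. At 1 day FCGR2A was at 0.74 with the covariate and FCGR2B at 0.51.

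**Figure D4:**
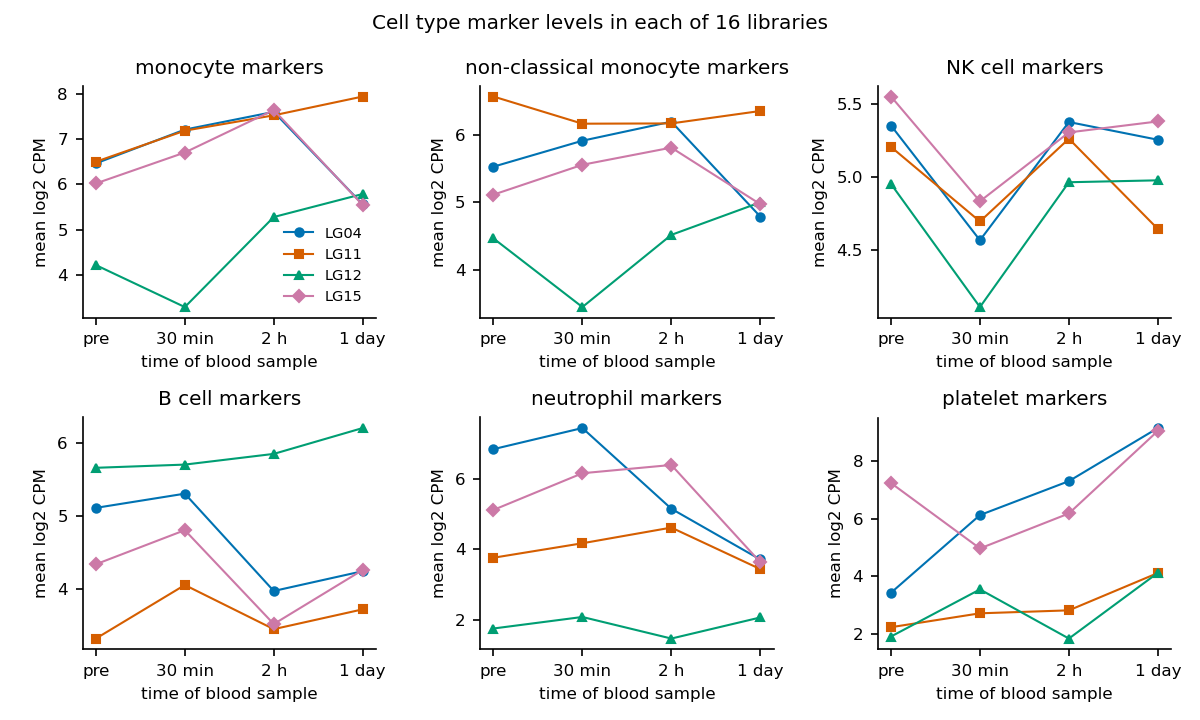
Mean log2 CPM of the markers of 6 cell types (vertical) in each animal at the 4 times (horizontal), 1 point per library. The monocyte markers are highest at 2 hours in LG04 and LG15 and at 1 day in LG11 and LG12, and the natural killer cell markers are lowest at 30 minutes in 3 of 4 animals.

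Natural killer cell markers, of interest because FCGR3A and TYROBP are also expressed by those cells, had a median log2 of -0.80 at 30 minutes, with 12 of 12 tested markers below 0 and 11 of them at an unadjusted p under 0.05, beside 1.48% of all genes tested. Their summed level was 554.7 to 954.7 CPM before the drug and 321.4 to 597.8 CPM at 30 minutes. Neutrophil markers, a list that includes FCGR3B, had medians of 0.72, 0.04 and -1.89 at the 3 later times. They ranged from 124.0 to 5678 CPM in sum before the drug, although the cells came from a density gradient. The lowest of these sums, in LG12, includes 53.8 CPM assigned to FCGR3B. The macaque gene table lists no gene under the symbol FCGR3B, and that part may be reads of FCGR3A, which was not tested. Platelet markers, among them GP6, had a median log2 of 2.63 at 1 day. All 11 of 11 were above 0 at an unadjusted p under 0.05, beside 8.47% of all genes tested higher. Their sums at 1 day were 32960 CPM in LG04 and 27050 in LG15, whose 1 day libraries were most alike each other. They were 827.2 CPM in LG11 and 1029 in LG12. Before the drug the sums ran from 134.1 CPM in LG12 to 10010 CPM in LG15. With the platelet marker level as a covariate, the 1 day log2 fold changes were 1.31 ± 0.39 (SE) for FCGR2A, 1.42 ± 0.61 for FCGR2B, 0.83 ± 0.60 for FCGRT and 0.59 ± 0.75 for TYROBP. SYK was at 0.56, FCER1G at 0.41 and FCGR3A at 0.0024 in that fit. The edgeR adjusted p of FCGR2A was 0.952 there, in place of 0.168, although its fold change was not smaller than the 0.86 ± 0.28 without the covariate. Over all genes tested, 530 had an unadjusted p under 0.05 in the covariate fit, in place of 1570. The adjusted p of a gene depends on that number too. The part of natural killer cells, neutrophils and platelets in the values of the 7 genes was otherwise not tested.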

How the data were processed

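RNA of unfractionated mononuclear cells was depleted of ribosomal RNA and sequenced as stranded libraries with single reads, per the labels' protocols. Counts in the deposited tables are whole numbers of reads per human gene, without normalization. The deposited FPKM tables hold values the authors scaled to length and library size. STAR, HTSeq, Trimmomatic, FastQC, edgeR and DESeq, without versions, and GRCh37 and hg19 as builds stand in the submitters' processing notes, and other settings (aligner, counter, strand) are not given in the sources used. Macaque reads on human models can be undercounted or split between paralogues.

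Counts were read from the tables per animal and time, and samples were grouped by title. The 24369 entries were summed to 23602 symbols. Of 24 count columns in the series-wide tables, 23 equalled the library they name, and the column named for LG04 at 2 hours held the LG04 values of 1 day, so those tables were not used. Genes were filtered with filterByExpr by time, which left 11545, scaled by TMM and fitted with edgeR 4.0.16 (R 4.3.3) by the quasi-likelihood test with time and animal on all 16 libraries (9 residual degrees of freedom). P-values were adjusted by Benjamini-Hochberg over all genes tested, with a threshold of 0.05. Each animal gave blood at all 4 times, so animal is the replicate block of the main model. Deviations from the time means correlated in 24 pairs of libraries of an animal with a median of 0.56 (lowest 0.06, 23 of 24 over 0.1). CPM levels use TMM-effective library sizes, and log2 CPM a prior count of 2. Ratios used counts plus 0.5 and exact sign-flip tests (Python 3.11.15 with NumPy 2.4.6). DESeq2 1.42.0 and other settings were alternatives. The fit was tested on simulated data. Intervals and floors cover counting error or the spread between these 4 animals.

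The members and gene lists were chosen with earlier results of these data known. Named were the 7 members, in each pathway list and comparison with pre-treatment the genes called (at most 5) or otherwise the one with the smallest p, and the 3 genes most like each member.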

Additional observations from a re-analysis of the deposited data

Results flagged for a closer look

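Among 40 groups of 4 libraries (the 7 genes and 3 ratios at 4 times) 3 held a library far from the other 3, by Dixon's ratio of the gap to the range. Chance gives about 1 in 20 such groups. FCGR3A before the drug was at 303.8 CPM in LG11, beside 93.5 to 128.9 CPM in the other animals. FCER1G at 1 day was at 361.0 CPM in LG11, beside 94.0 to 108.4 CPM. SYK before the drug was at 121.0 CPM in LG15, beside 162.2 to 167.9 CPM.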

How the results depend on the processing

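The number of the 7 genes called was 0 under each of 89 alternatives (15 settings over the comparisons), 0 with no replicate block among them. Of 525 alternative fold changes of the members 468 kept their sign and 57, none of them called, did not, and of 54 ratio changes 5 did not. The cause was not tested. Over all genes tested, the calls at 1 day against pre-treatment were 26 as reported, 400 with DESeq2, 402 with the monocyte marker level, 70 with no filter, 67 without LG15, 3 with no replicate block, 0 without the 4 shallowest libraries, 18 without the 1 day library of LG04, and 1 with the platelet marker level, with only the 2 times compared, or without LG04 or LG12 (2 without LG11). DESeq2 called 11 genes at 30 minutes and 79 at 2 hours, where edgeR called 0 (292 and 858 at an unadjusted p under 0.05), 3 at 2 hours against 30 minutes (edgeR 0), 114 at 1 day against 2 hours (edgeR 12) and 440 between any times (edgeR 12).

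Leaving out 1 animal at a time gave these ranges of log2 fold change where a sign turned. Against pre-treatment at 30 minutes they were -0.28 to 0.15 for FCGR3A, -0.25 to 0.22 for FCER1G and -0.021 to 0.16 for SYK. At 2 hours they were -0.29 to 0.46 for TYROBP and -0.18 to 0.76 for FCGRT. At 1 day they were -0.38 to 0.018 for FCGR3A, -0.011 to 0.39 for FCER1G, -0.65 to 0.23 for TYROBP and -0.41 to 0.23 for FCGRT. From 2 hours to 1 day they were -0.32 to 0.28 for FCGR2A, -0.92 to 0.10 for FCGR2B and -0.70 to 0.18 for TYROBP, and from 30 minutes to 2 hours -0.19 to 0.40 for FCGRT. The ratio of FCGR2A to FCGR2B gave -0.35 to 0.10 at 30 minutes and -0.16 to 0.12 at 1 day, and that of FCER1G to TYROBP -0.26 to 1.10 at 1 day. From the deposited FPKM the 1 day change of FCGR2A to FCGR2B was 0.12.

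The 30 minute value of FCER1G, 0.03 as reported, was -0.0058 with DESeq2, -0.00049 with RLE size factors, -0.0044 with no filter, -0.012 with haemoglobin genes removed and -0.059 from the 2 times alone. With no replicate block TYROBP at 2 hours was -0.049. With the monocyte marker level, the values at 30 minutes were -0.22 for FCER1G, -0.0060 for SYK and -0.11 for FCGRT, at 2 hours -0.32 for FCGR3A, -0.15 for FCER1G, -0.92 for TYROBP and -0.60 for FCGRT, and at 1 day -0.16 for FCER1G. From 30 minutes to 2 hours that setting gave -0.071 for FCGR3A, -0.043 for TYROBP and -0.49 for FCGRT, and from 2 hours to 1 day 0.23 for FCGR2A, 0.12 for FCGR2B and 0.25 for TYROBP. With the platelet marker level, the 1 day values were 0.0024 for FCGR3A, 0.59 for TYROBP and 0.83 for FCGRT, and those from 2 hours to 1 day 0.26 for FCGR2A, 0.21 for TYROBP and 0.087 for FCGRT.

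Without the 1 day library of LG04, the 1 day values were 0.035 for FCGR3A, 0.26 for TYROBP and 0.20 for FCGRT, and those from 2 hours to 1 day 0.019 for FCGR2A and 0.20 for TYROBP. Without the 4 shallowest libraries, a setting chosen after seeing the data, FCGR3A was at 0.081 at 30 minutes, TYROBP at -0.19 and FCGRT at -0.14 at 2 hours, and TYROBP at 0.0043 and FCGRT at 0.19 at 1 day. In that setting FCGRT from 30 minutes to 2 hours was at -0.59, and from 2 hours to 1 day the values were 0.26 for FCGR2A, 0.20 for FCGR2B, 0.19 for TYROBP and 0.32 for FCGRT. On total counts the pre-treatment mean of FCGR2B was 21.7 CPM, and on total counts without haemoglobin genes it was 23.5 CPM and that of SYK 188.9 CPM, in place of 19.3 and 154.6. Depth limits FCGR2A, TYROBP and FCGRT most, with as few as 8, 9 and 17 counts in a library.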
